A study of Mus musculus with 8 samples.

Results

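Genes of 10 secreted factors of blood and lymph vessel growth and of lipid handling are described here: the vascular endothelial growth factor genes Vegfa, Vegfb, Vegfc, Figf and Pgf, the angiopoietin genes Angpt1 and Angpt2, the angiopoietin-like genes Angptl2 and Angptl4, and Adm, which encodes adrenomedullin. They were chosen by gene name, with their behaviour in these samples already known, and all 10 were found among the 23699 gene entries of each library. RNA of the mouse fibroblast line 3T3-L1, whose cells can be turned into fat cells, was sequenced in 8 libraries. The control group (siCtr, 4 libraries) had been transfected with a mix of 3 nontargeted Stealth siRNAs, and the knockdown group (siFto, 4 libraries) with 3 Stealth siRNAs against Fto, an RNA and DNA demethylase gene. Both groups received 40 nM siRNA with Lipofectamine for 24 hours before confluence, in medium with 10% newborn calf serum and 25 mM glucose, and were preadipocytes at 2 days after confluence. The cells are 1 established line, each siRNA group is a single pool, and no inducer of fat cell differentiation is named in the labels.

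VEGF proteins are dimeric ligands of receptor tyrosine kinases on endothelial cells. VEGF-A drives blood vessel growth, and VEGF-C and VEGF-D (the product of Figf, now named Vegfd) drive lymphatic vessel growth. Angiopoietin 1 activates the endothelial receptor Tie2 and stabilises vessels, while angiopoietin 2 opposes it in many settings. Angiopoietin-like 4 inhibits lipoprotein lipase, the enzyme that frees fatty acids from circulating triglyceride, and adrenomedullin is a vasodilator peptide that signals through a calcitonin receptor-like receptor. In fat tissue the stromal precursors and the fat cells are known sources of such factors.

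Fto itself was lower in each siFto library, at 10.7 to 13.8 FPKM against 54.6 to 56.2 FPKM in the controls, where FPKM is the number of fragments per kilobase of transcript, scaled to library size. The width of the deposited intervals corresponds to 18.9 to 24.4 M fragments per library, and 11351 to 11397 genes had 1 FPKM or more. Of 9 preadipocyte and fibroblast markers 8 had a mean of at least 1 FPKM, with a summed level of 6010 to 6533 FPKM among controls and 6413 to 7434 FPKM among siFto libraries; 4 of the 8 rose and 2 fell, and their part in the results below was not tested. Of 10 endothelial markers, 8 stayed under 0.3 FPKM in every library, Kdr, Tie1, Tek, Cdh5 and Pecam1 among them. All 10 together reached 1.67 to 2.29 FPKM in a control library and 1.70 to 2.06 FPKM in a siFto library. Of 8 mature fat cell markers 3 had a mean of at least 1 FPKM, with sums of 51.2 to 81.8 and 53.4 to 65.8 FPKM, mostly from Fabp4. Adipoq held 9.19 FPKM in control replicate 4, against 2.77 to 3.20 FPKM in the other controls and 1.22 to 3.54 FPKM with Fto siRNA. The part of this library's high Adipoq in the results below was not tested. Of 7 macrophage markers 3 had a mean of at least 1 FPKM, Cd14 among them, and none passed the test. The 7 summed to 10.08 to 13.58 FPKM among controls and 11.06 to 13.04 FPKM among siFto libraries. Ptprc, Emr1 and Itgam stayed under 0.3 FPKM in every library, with Ptprc and Emr1 at or under 0.00949 FPKM.

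Before the knockdown was considered, the control libraries set an order among the 10 genes, on the FPKM scale, which is per transcript length. Angptl4 was the highest at 191 ± 14.5 FPKM (SD, n = 4), followed by Figf at 144 ± 3.97 FPKM and Angptl2 at 65.3 ± 1.81 FPKM. Vegfb held 54.2 ± 3.95 FPKM, Adm 48.05 ± 1.94 FPKM, Angpt1 43.7 ± 0.706 FPKM and Vegfa 40.9 ± 3.92 FPKM. Vegfc followed at 29.1 ± 0.578 FPKM and Angpt2 at 9.99 ± 0.799 FPKM, and Pgf was near the floor at 0.137 ± 0.0827 FPKM. Of the 9 neighbouring pairs in this order, only Angpt1 and Vegfa had overlapping ranges over the 4 controls, with Angpt1 the higher in 3 of 4. Nothing in the labels ties replicates to separate cultures, so errors and p-values measure only how these samples spread, possibly for technical reasons.

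**Figure D1:**
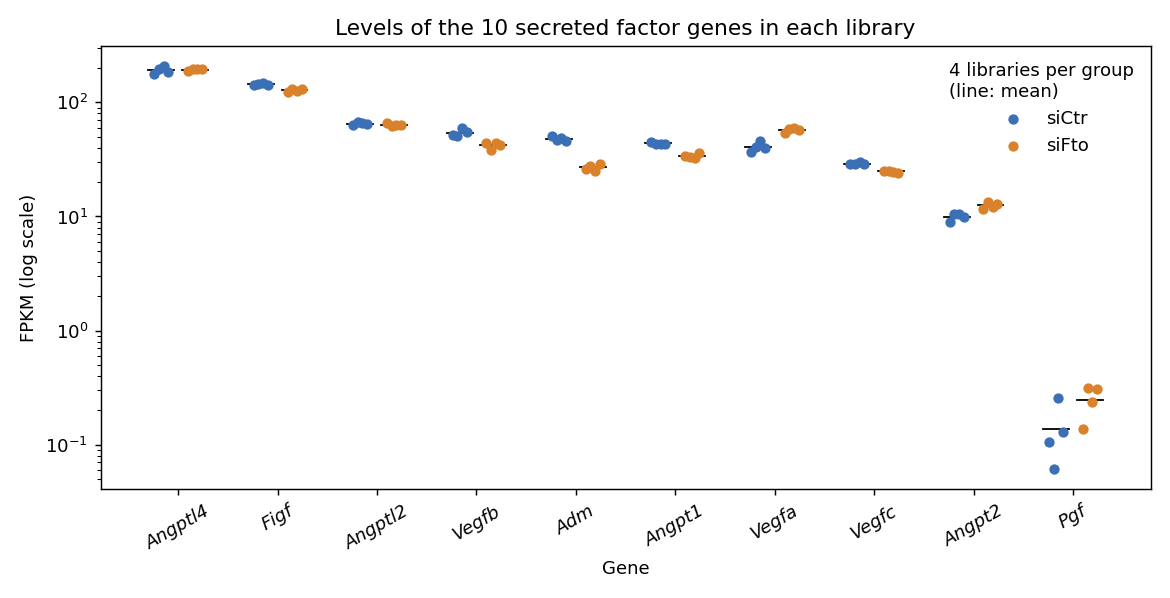
FPKM on a log axis of the 10 genes, ordered by their control mean, with 1 point per library (replicates 1 to 4 from left to right), blue for siCtr, orange for siFto and a line at each group mean. Vegfa and Angpt2 lie higher with Fto siRNA, Adm, Angpt1, Vegfb, Vegfc and Figf lie lower, and the groups overlap for Angptl4, Angptl2 and Pgf.

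Differences between the groups are given for these 10 genes as a description, because they were chosen with this contrast known. Vegfa and Angpt2 were higher with Fto siRNA, and Adm, Angpt1, Vegfb, Vegfc and Figf were lower, with no overlap between the groups for any of these 7. Angptl4 and Angptl2 overlapped between the groups. A mean of 1 FPKM over all libraries was the filter for testing, which 9 genes passed and Pgf did not. Among the 9, 2 were past the limma adjusted p threshold of 0.05 in the higher direction, where the background is 6.97% of 11398 tested genes, and 5 in the lower direction, where it is 12.3%. The groups did not overlap for 9.08% of all tested genes in the higher and 15.1% in the lower direction. The median log2 difference was -0.17 over the 9 genes and -0.02 over all tested genes. Nothing is read from these counts, since the choice of genes set them.

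Adm, the vasodilator peptide gene, had the largest log2 difference of the 9 genes that passed the filter. It lies in the deposited files (build mm9) at chromosome 7, 117771183 to 117773333. The controls held 50.4, 46.99, 48.8 and 46.02 FPKM, and the siFto libraries 25.98, 27.9, 25.2 and 29.1 FPKM. All 4 siFto libraries lay well below the lowest control, and neither group had a library apart from the rest. The mean was 48.05 ± 1.94 against 27.02 ± 1.76 FPKM (SD, n = 4), 43.8% lower, a log2 difference of -0.82 with SE 0.050. These values rest on 554 to 1331 fragments per library. As in any bulk sample, fewer cells that express a gene and less of its RNA per cell cannot be told apart. In the pathway lists below, only Thbs2 had a log2 difference further below 0.

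Vegfa, the main growth factor of blood vessels, had the largest difference in the other direction among those 9. It lies at mm9 chromosome 17, 46153943 to 46169326, with 2 annotated start sites in the deposited table. The controls held 36.7, 40.8, 46.2 and 39.9 FPKM and the siFto libraries 53.9, 58.4, 60.1 and 57.8 FPKM. The highest control, replicate 3, stayed below the lowest siFto library. The mean was 40.9 ± 3.92 against 57.6 ± 2.62 FPKM (SD, n = 4), 40.8% higher, a log2 difference of 0.49 with SE 0.063. Vegfa makes several splice forms that bind the matrix to different degrees, and FPKM per gene do not separate them.

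The upstream sequence of both genes is shown because hypoxia factors act on the core words ACGTG and GCGTG, and both genes are textbook targets of that pathway. RefSeq windows (GRCm38.p6) were found for 7 of the 10 genes and were not found for Angpt1, Angpt2 and Angptl4. Each sequence is the 250 bases before an annotated start, on the strand of the gene, and capitals mark ACGTG or GCGTG on either strand. The Adm window is chr7:110627407-110627656 on the plus strand, and the Vegfa window is chr17:46032378-46032627 on the minus strand.
Adm: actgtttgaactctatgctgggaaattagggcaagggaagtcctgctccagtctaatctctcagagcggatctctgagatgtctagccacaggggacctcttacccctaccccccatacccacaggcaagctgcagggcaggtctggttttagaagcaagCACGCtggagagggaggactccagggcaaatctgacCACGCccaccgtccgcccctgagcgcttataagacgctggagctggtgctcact
Vegfa: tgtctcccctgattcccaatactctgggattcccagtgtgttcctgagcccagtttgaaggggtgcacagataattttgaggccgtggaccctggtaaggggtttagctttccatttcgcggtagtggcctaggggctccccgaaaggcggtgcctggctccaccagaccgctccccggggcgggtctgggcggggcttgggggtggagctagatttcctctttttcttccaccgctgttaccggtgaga
The Adm window held 2 matches to GCGTG, which begin 90 and 54 bases before the start, and the Vegfa window held none. A further Vegfa window, before an internal start at chr17:46025164-46025413, held 1 match to each word. Vegfb held 2 matches to GCGTG, the 5′ Pgf window held 1, and the windows of Vegfc, Figf and Angptl2 held none. Of 32817 promoter windows of the same length, 38.6% held ACGTG or GCGTG. The GC box GGGCGG, searched on both strands, occurred 2 times in the Vegfa window shown, 4 times in that of Vegfb and once in that of Adm, and 32.7% of all windows held it. A match is a description of letters, and a window without one says nothing of the factor.

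The other VEGF genes went lower or were too low to judge. Vegfb, a ligand of VEGF receptor 1 linked to fatty acid handling, held 51.5, 50.7, 59.3 and 55.3 FPKM in the controls and 44.1, 38.6, 44.1 and 41.9 FPKM with Fto siRNA. The groups did not overlap, and control replicate 3 was again the highest. Vegfb (mm9 chromosome 19, 7056962 to 7062141) was 22.1% lower, a log2 difference of -0.36 with SE 0.059. Vegfc, a ligand of the lymphatic receptor VEGF receptor 3, held 28.9, 29.04, 29.96 and 28.6 FPKM in the controls and 25.2, 25.3, 24.7 and 24.1 FPKM with Fto siRNA. The spread within each group was small, with SDs of 0.578 and 0.522 FPKM. Vegfc (mm9 chromosome 8, 55162886 to 55271808) was 14.8% lower, a log2 difference of -0.23 with SE 0.032.

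Figf, the most abundant VEGF gene in these cells, held 142, 146, 149 and 141 FPKM in the controls and 124, 132, 127 and 130.4 FPKM with Fto siRNA. Its locus is mm9 chromosome X, 160811480 to 160840579. It was 11.2% lower, a log2 difference of -0.17 with SE 0.035, the smallest difference among the 7 genes without overlap. Pgf, placental growth factor (mm9 chromosome 12, 86507591 to 86518235), was listed at 0.0608 to 0.254 FPKM among controls and at 0.136 to 0.317 FPKM among siFto libraries. Its intervals correspond to 3, 2, 7 and 4 fragments in the controls and 4, 9, 6 and 9 with Fto siRNA. The groups overlapped, and Pgf was below the filter and not tested for a difference.

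Within a library, the 5 VEGF genes can be set against their own sum. Their sum was 259 to 285 FPKM among controls and 247 to 256 FPKM among siFto libraries, so the ranges did not overlap but the means, 269 ± 11.2 and 253 ± 4.09 FPKM (SD, n = 4), lay close. The share of Vegfa was 15.2 ± 0.83% in the controls and 22.7 ± 0.687% with Fto siRNA. The share of Vegfb was 20.1 ± 0.888% and 16.7 ± 1.16%, that of Vegfc 10.8 ± 0.262% and 9.80 ± 0.313%, and that of Figf 53.8 ± 1.18% and 50.7 ± 1.04%. Vegfb exceeded Vegfa in each control and Vegfa exceeded Vegfb in each siFto library, with ratios of Vegfa to Vegfb of 0.714 to 0.806 and of 1.22 to 1.51.

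**Figure D2:**
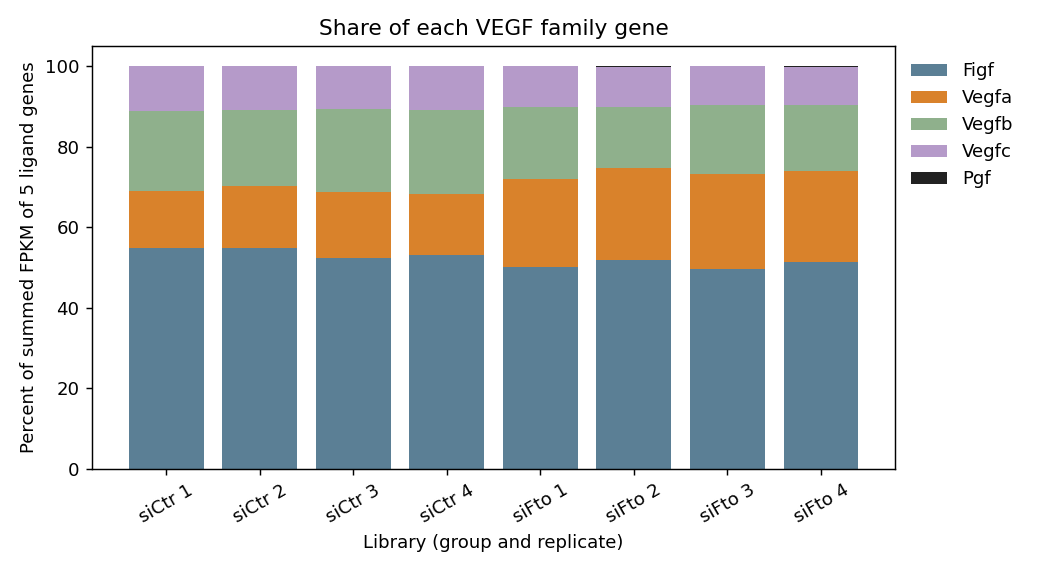
Stacked bars give, for each of the 8 libraries, the percent of the summed FPKM of the 5 VEGF genes that each gene holds. Vegfa takes 14.2 to 16.2% of the controls' sums and 21.8 to 23.5% of the siFto sums, and Figf stays the largest share in each library.

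The angiopoietin genes moved in opposite directions. Angpt1, the activating ligand of Tie2, held 44.7, 43.5, 43.4 and 43.1 FPKM in the controls and 33.9, 33.3, 32.8 and 36.05 FPKM with Fto siRNA. The lowest control lay above the highest siFto library, replicate 4. Angpt1 (mm9 chromosome 15, 42256271 to 42508341) was 22.1% lower, a log2 difference of -0.36 with SE 0.037. Angpt2, which often acts against Angpt1, held 8.88, 10.5, 10.6 and 9.94 FPKM in the controls and 11.7, 13.5, 12.1 and 12.98 FPKM with Fto siRNA. It was 25.6% higher, a log2 difference of 0.32 with SE 0.065, on 419 to 638 fragments per library. The ratio of Angpt1 to Angpt2 was 5.03, 4.12, 4.09 and 4.33 in the controls and 2.91, 2.47, 2.71 and 2.78 with Fto siRNA, a mean of 4.39 ± 0.438 against 2.72 ± 0.183 (SD, n = 4). The Angpt2 locus, mm9 chromosome 8, 18691337 to 18741551, overlaps Mcph1, at 5.66 ± 0.403 and 6.37 ± 0.342 FPKM, whose part in the Angpt2 value was not tested. No source used here states a stranded protocol. Overlap here and below is of whole loci from start to end, and whether exons overlap was not examined.

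The angiopoietin-like genes, both among the 3 most abundant of the 10, overlapped between the groups. Angptl4, the inhibitor of lipoprotein lipase and a target of PPAR and glucocorticoid receptors, held 176, 198, 208 and 183 FPKM in the controls and 189, 195, 197 and 195 FPKM with Fto siRNA. The controls spread wider than the siFto libraries and enclosed them, with SDs of 14.5 and 3.08 FPKM. The Angptl4 locus is mm9 chromosome 17, 33911845 to 33918520. The log2 difference was 0.02 with SE 0.050 and a 95% interval of -0.09 to 0.13. Angptl2, an inflammatory and matrix-associated factor of fat tissue, held 63.1, 67.3, 66.02 and 64.8 FPKM in the controls and 65.6, 61.9, 63.2 and 63.5 FPKM with Fto siRNA. Its log2 difference was -0.04 with SE 0.033 and a 95% interval of -0.11 to 0.03, and its locus, mm9 chromosome 2, 33071481 to 33103234, overlaps Ralgps1, which had 1.85 ± 0.276 and 1.90 ± 0.124 FPKM.

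**Figure D3:**
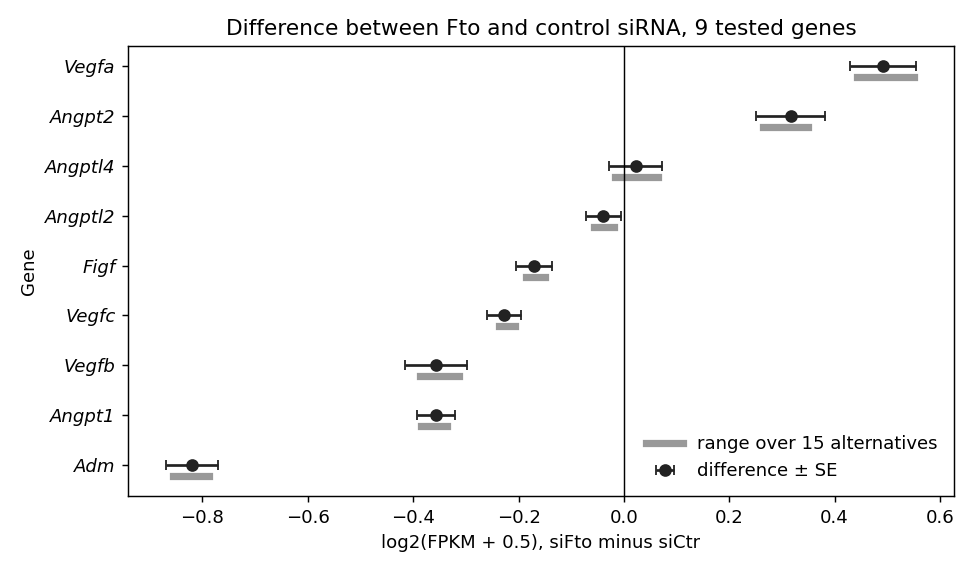
The difference in log2(FPKM + 0.5), siFto minus siCtr, of the 9 genes that passed the filter is shown as a point with its SE, and a grey bar gives the range over 15 alternative settings. The 5 lower and 2 higher genes keep their side of 0 in each setting, and Angptl4 crosses it.

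Control replicate 3 had the highest value of the control group for 7 of the 10 genes and the lowest for none. Its FPKM over all genes summed to 484842, against 454737 to 462360 in the other controls. The part of this library-wide offset in the values of the 10 genes was not tested. Without control replicate 3 the log2 difference of each of the 9 genes kept its direction. Other genes whose levels followed the 3 most abundant of the 10 were sought among 9181 genes with a mean of at least 5 FPKM. Over the 8 libraries, Figf was most like Gypc (Pearson r = 0.99) and Ufsp2 (r = 0.99), Angptl4 most like Cd14 (r = 0.96) and Vim (r = 0.95), and Angptl2 most like Bag6 (r = 0.95) and Sdf2l1 (r = 0.93). These are the highest of 9181 values over only 8 libraries, and they are given as a description. Cd14 is among the macrophage markers listed above. For Figf the libraries share the group difference, while the groups overlapped for Angptl4 and Angptl2.

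A sequence feature shared by many lowered transcripts in these samples was looked for in the 10 genes and found in 1, which was higher. The 3′ UTR words GACCTTA and ACCTTAA, chosen with earlier results of these data known, stood in 26.0% of 1348 searched genes that fell, in 7.94% of 756 that rose and in 12.9% of all 10711 searched genes (GENCODE M21, GRCm38, the longest annotated 3′ UTR of each gene). Of the 10 genes only Angpt2, which was higher, held either word. Among all carriers of a word 350 fell, 60 rose and 977 of 1387 were not called. The site in Angpt2 is shown as the 1 match among the 10 genes, at chr8:18690836-18690864 on the minus strand, with the word in capitals.
Angpt2: agaattgtcaaACCTTAActccttctgtt
Adm, Angpt1, Vegfb, Vegfc and Figf held none in 3′ UTRs of 417 to 2247 bases.

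The endothelial receptor tyrosine kinase genes were low in these cells. Kdr and Flt4, VEGF receptors 2 and 3, were at or under 0.0158 and 0.00853 FPKM, and the angiopoietin receptor genes Tek and Tie1 at or under 0.270 and 0.0145 FPKM. Flt1, VEGF receptor 1, held 0.938 ± 0.0879 and 1.07 ± 0.224 FPKM (SD, n = 4; log2 difference 0.12, limma adjusted p = 0.57). The VEGF co-receptors were abundant: Nrp1 fell from 64.7 ± 2.71 to 56.2 ± 2.56 FPKM (log2 difference -0.20, limma adjusted p = 0.0099), while Nrp2 held 46.3 ± 2.87 and 44.3 ± 3.22 FPKM (-0.06, limma adjusted p = 0.51). Of 3 tested VEGF receptor genes out of 5 listed, 1 fell, 0 rose and 2 did not pass (median log2 difference -0.06). For this list and those below, the background over all 11398 tested genes is 6.97% called higher, 12.3% lower and 19.3% in either direction, with a median of -0.02, and nothing is called particular to a list from its counts. The Nrp1 locus overlaps Mir1903 and that of Nrp2 overlaps 4930487H11Rik.

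For adrenomedullin, the receptor gene Calcrl rose while the ligand gene was lower. Calcrl held 10.9, 11.6, 12.2 and 11.8 FPKM in the controls and 13.1, 13.7, 13.6 and 14.4 FPKM with Fto siRNA, with no overlap. Its log2 difference was 0.23 with SE 0.045 (limma adjusted p = 0.0069). Ramp2, whose product turns this receptor into one for adrenomedullin, was low, at 0.826 ± 0.225 and 1.51 ± 0.512 FPKM (SD, n = 4; log2 difference 0.57, limma adjusted p = 0.068), on 8 to 27 fragments per library. Its limma adjusted p was 0.044 without control replicate 3 and 0.015 without siFto replicate 1, and 0.11 to 0.16 in the other 6 runs without 1 library. Ramp3 held at most 0.285 FPKM and Ramp1 at most 0.473 FPKM. The scavenger receptor gene Cxcr7, now named Ackr3, held 14.8 ± 1.25 and 15.03 ± 1.06 FPKM (0.02, limma adjusted p = 0.84).

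**Figure D4:**
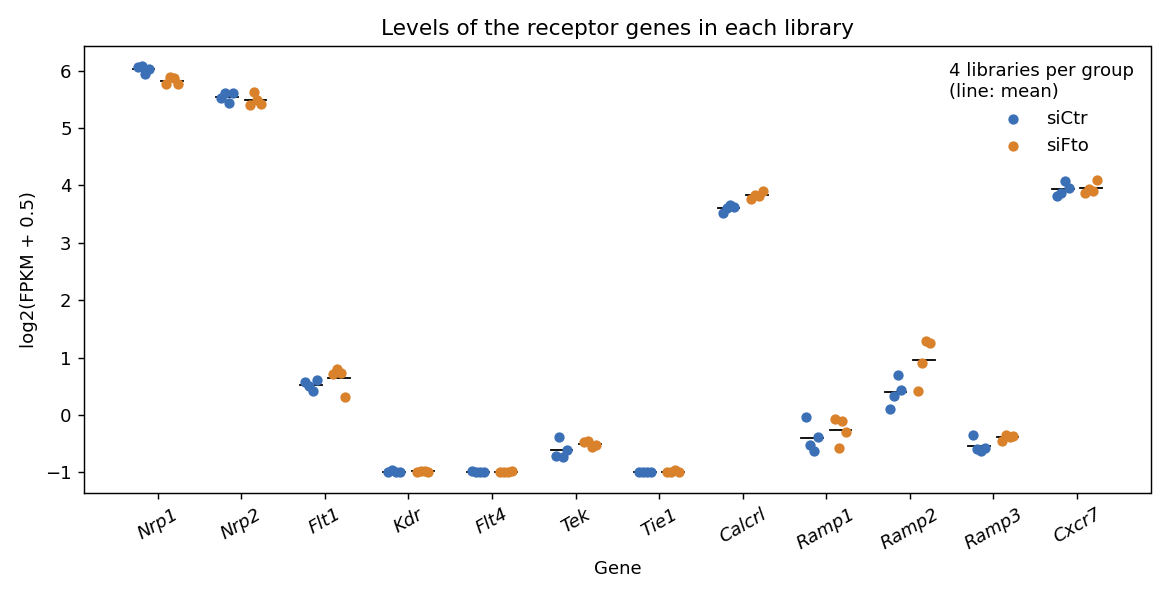
Levels of 12 receptor genes are plotted as log2(FPKM + 0.5), so that a gene at 0 lies at -1, with 1 point per library, blue for siCtr and orange for siFto, and a line at each group mean. Nrp1, Nrp2, Calcrl and Cxcr7 stand far above the other 8, Calcrl is higher and Nrp1 lower with Fto siRNA, and Kdr, Flt4 and Tie1 lie at the bottom of the axis.

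Of 4 listed integrin subunit genes, whose products bind angiopoietin-like and angiopoietin proteins beside many matrix ligands, 3 were higher. Other integrin genes were not examined here. Itgb3 rose from 15.03 ± 0.796 to 19.1 ± 0.569 FPKM (SD, n = 4; log2 difference 0.34, limma adjusted p = 7.4e-04), Itga5 by 0.20 (limma adjusted p = 0.0041) and Itgb1 by 0.18 (limma adjusted p = 0.0092). Itgav had a log2 difference of 0.02 (limma adjusted p = 0.83). They came from a list of 7 angiopoietin and angiopoietin-like receptor genes that also names Tek, Tie1 and Pirb, which were not tested. Of its 4 tested genes, 3 rose, 0 fell and 1 did not pass, with a median log2 difference of 0.19. Of all tested genes 6.97% rose. Among relatives of the angiopoietin genes, Angpt4 held 7.62 ± 0.335 and 6.50 ± 0.888 FPKM and Angptl6 3.07 ± 0.487 and 3.76 ± 0.836 FPKM, with limma adjusted p of 0.081 and 0.26. Of 2 tested relatives 0 were called, against 19.3% of all tested genes, and 1 fell without siFto replicate 4. In that library Angpt4 held 7.74 FPKM, against 5.69 to 6.45 FPKM in the other siFto libraries. Angptl1, Angptl7 and Gm6484, now named Angptl8, each had a mean under 1 FPKM and were not tested. Angptl7 held 0.107 to 0.211 FPKM in the controls and 0.316 to 0.375 FPKM with Fto siRNA, with no overlap, on 4 to 15 fragments per library, and with no filter on low values it passed (log2 difference 0.36, limma adjusted p = 0.0084).

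Genes that process or store these proteins changed in both directions. Mmp14, a membrane-bound matrix protease, fell from 344 ± 10.3 to 238 ± 14.4 FPKM (SD, n = 4; log2 difference -0.53, limma adjusted p = 8.6e-05), and Plau, urokinase, from 7.19 ± 0.563 to 4.09 ± 0.509 FPKM (-0.75, limma adjusted p = 3.6e-04). Mmp9, a gelatinase that releases matrix-bound VEGF, rose from 15.8 ± 0.786 to 19.8 ± 0.720 FPKM (0.32, limma adjusted p = 0.0012). Of 9 tested genes among the 13 of this list found in the libraries, 1 rose, 4 fell and 4 did not pass (median log2 difference 0.02). This is 55.6% called against 19.3% of all tested genes. Lpl, the lipase that Angptl4 inhibits, fell from 368 ± 8.09 to 301 ± 10.3 FPKM (-0.29, limma adjusted p = 5.9e-04), and Lmf1, needed for its maturation, by a log2 difference of -0.21 (limma adjusted p = 0.017; 0.052 without control replicate 2). Pam, the enzyme that amidates peptides such as adrenomedullin, rose from 37.8 ± 1.30 to 48.2 ± 1.90 FPKM (0.34, limma adjusted p = 3.8e-04), and its locus overlaps B230216N24Rik. In the list of lipoprotein lipase handling, where Pam had been placed, 2 of 6 tested genes rose, 2 fell and 2 did not pass (median log2 difference 0.05), or 66.7% called against 19.3% of all tested genes. Only 1 gene of this list rose without control replicate 1, 2 or 4, without siFto replicate 1, 3 or 4, with the replicate number as a block or with no filter on low values, and 1 fell without control replicate 2.

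Of the transcription factors and sensors of low oxygen, which control Vegfa, Angptl4 and Adm, most did not pass the test. Epas1, which encodes HIF-2 alpha, rose from 13.7 ± 1.22 to 18.4 ± 0.925 FPKM (SD, n = 4; log2 difference 0.42, limma adjusted p = 0.0015). Cited2, a competitor of HIF for its coactivator, rose from 59.5 ± 1.30 to 70.1 ± 1.22 FPKM (0.23, limma adjusted p = 7.6e-04). Hif1a held 64.3 ± 1.89 and 65.7 ± 3.47 FPKM (0.03, limma adjusted p = 0.68) and its partner Arnt 40.3 ± 0.778 and 39.9 ± 0.811 FPKM (-0.02, limma adjusted p = 0.77). The prolyl hydroxylase genes Egln1, Egln2 and Egln3 had log2 differences of 0.06, 0.03 and 0.03, Hif1an 0.02, Vhl 0.09 and Arnt2 -0.15, with limma adjusted p of 0.11 to 0.85. Of 10 tested genes 2 rose, 0 fell and 8 did not pass, with a median log2 difference of 0.03. This is 20% called, close to the 19.3% of all tested genes. Vhl passed under median-ratio scaling (log2 difference 0.11, limma adjusted p = 0.049).

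Most other targets of hypoxia did not pass the test. Of 19 tested genes 3 rose, 2 fell and 14 did not pass (median log2 difference 0.03), or 26.3% called against 19.3% of all tested genes. The number that fell was 1 or 0 under 12 of 15 alternatives, among them each run without 1 library other than siFto replicate 1, and 5 rose without control replicate 3. Ero1l, an oxidase of the endoplasmic reticulum, rose by 0.33 (limma adjusted p = 0.0051) and P4ha1, a collagen prolyl hydroxylase subunit, by 0.19 (limma adjusted p = 0.012), while Mxi1, a MAX-binding repressor, fell from 5.34 ± 0.734 to 3.13 ± 0.230 FPKM (SD, n = 4; -0.68, limma adjusted p = 8.8e-04). Among PPAR subunits and targets, the class that includes Angptl4, 2 of 14 rose, 2 fell and 10 did not pass (median -0.03), or 28.6% called against 19.3% of all tested genes. Slc25a20, the mitochondrial carnitine carrier, had a log2 difference of -0.29 (limma adjusted p = 0.0020). Among 10 genes of the glucocorticoid response 3 rose, 1 fell and 6 did not pass (median log2 difference -0.00381), or 40% called against 19.3% of all tested genes, and 2 fell without control replicate 3 or siFto replicate 3. The called genes included Tsc22d3 at 0.57 (limma adjusted p = 1.7e-05), the receptor gene Nr3c1 at 0.16 (limma adjusted p = 0.011) and Errfi1 at -0.18 (limma adjusted p = 0.0094).

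Most other secreted factors of vessel growth did not pass the test. Cxcl12, a chemokine for progenitor and endothelial cells, fell from 1166 ± 85.3 to 918 ± 32.5 FPKM (SD, n = 4; log2 difference -0.34, limma adjusted p = 0.0025), and Ereg, an EGF receptor ligand, by a log2 difference of -0.33 (limma adjusted p = 0.0042). Pdgfc rose from 15.02 ± 0.446 to 17.6 ± 0.778 FPKM (0.22, limma adjusted p = 0.0052). Of 18 tested factors 1 rose, 3 fell and 14 did not pass (median -0.06), or 22.2% called, near the 19.3% of all tested genes; 2 rose without control replicate 3 or under quantile normalization. Among 15 tested inhibitors of vessel growth 4 rose, 4 fell and 7 did not pass (median -0.05), or 53.3% called. These counts moved with single libraries: 1 inhibitor rose without control replicate 2 or 4 or siFto replicate 1, 3 or 4, 2 fell without control replicate 2 or siFto replicate 1, 2 or 3, and 6 fell without control replicate 3. With no filter on low values 1 rose, and with the replicate block 2 rose. Thbs2, a thrombospondin that restrains vessel growth, had a log2 difference of -0.89 (limma adjusted p = 5.3e-06), Timp3, which blocks VEGF receptor 2, -0.24 (limma adjusted p = 0.014) and Sema3c, a neuropilin ligand, 0.42 (limma adjusted p = 0.0011). The Timp3 locus overlaps Syn3.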

How the data were processed

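Total RNA of 8 samples, 4 siCtr and 4 siFto, was sequenced by the authors. The submitters' processing notes name TopHat2 2.0.11, Cufflinks 2.2.1 and build mm9. The deposited values are FPKM with interval bounds and a status, 1 table per library, per the file headers; all 10 genes had the status OK in each library. The genes, lists and named-gene rule were chosen with earlier results of these data known. All 11398 genes averaging at least 1 FPKM were fitted as log2(FPKM + 0.5) in limma 3.58.1 (R 4.3.3) with a trended prior variance. Its two-sided p-values were adjusted by Benjamini-Hochberg over those genes, with calls under 0.05. The pseudocount makes a difference in low genes smaller. Named were all 10 genes, up to 3 called genes of lowest p per list, receptor and oxygen-sensing genes at 1 FPKM or more, and for the 3 most abundant genes the 2 most like them. Some genes that this rule names are not reported here. Fragments were worked out as the number that would give each interval its width by counting error alone. Of low values so obtained, 70.4 to 72.6% per library were whole numbers, so for other genes the number is approximate. The width does not cover the spread between libraries, and no count test was run on FPKM. On 5 simulated sets with 200 changed genes of 11398, a median of 64% of differences of 0.3 and 92% of 0.6 was recovered, with 7 to 17 calls among unchanged genes. These sets had independent noise per gene and fewer changed genes than the data had calls, so their shares need not hold for the data. Loci are mm9, counted from 1. Sequences are from RefSeq and GENCODE M21 on GRCm38 and share no coordinates with mm9. The authors' compiled tables were not used here. Other pseudocounts, filters, scalings, a replicate block and leaving out each library were tried. Python 3.11.15 with numpy 2.4.6, pandas 2.3.3 and matplotlib 3.10.9 was used.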

Additional observations from a re-analysis of the deposited data

Results flagged for a closer look

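Of 104 groups of 4 libraries examined, 6 held a library far from the others, where chance gives about 1 in 20. The groups were those of the 10 genes, Fto and the genes named from the lists, and Adipoq was not among them. None of the 6 was a group of the 10 vascular and lipid factors. In the controls, replicate 3 was low for Itgav, at 38.6 FPKM against 41.05 to 41.4, and for Hif1an, at 15.96 FPKM against 18.3 to 18.6. In the siFto group, replicate 4 was high for Lpl, at 315.9 FPKM against 293 to 297, and for Ero1l, at 41.97 FPKM against 37.03 to 37.4, and low for Mxi1, at 2.78 FPKM against 3.22 to 3.28. Replicate 3 of siFto was high for Epas1, at 19.8 FPKM against 17.9 to 18.03. Without these libraries the calls of Lpl, Ero1l, Mxi1 and Epas1 kept their direction and their side of the threshold.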

How the results depend on the processing

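The 7 of the 10 genes that were called, 2 higher and 5 lower, were also called under each of 15 alternatives; the genes were chosen with this contrast known, so nothing is read from that. Over the alternatives the log2 difference of Adm was -0.86 to -0.79, of Vegfa 0.44 to 0.55, of Angpt1 -0.38 to -0.34, of Vegfb -0.39 to -0.31, of Vegfc -0.24 to -0.21, of Figf -0.18 to -0.15 and of Angpt2 0.26 to 0.35. Some differences near 0 changed sign when 1 library was left out, with ranges over the 8 such runs of -0.016 to 0.064 for Angptl4, -0.012 to 0.042 for Itgav, -0.023 to 0.075 for Cxcr7, -0.0012 to 0.062 for Egln2, -0.015 to 0.074 for Egln3 and -0.032 to 0.038 for Hif1an. That of Arnt was 0.0047 under median-ratio scaling; the cause was not tested. Higher genes made up 36.2% of all calls, 47.6% under median-ratio scaling and 47.4% under quantile normalization. After centring each group, correlations were -0.19 to 0.074 between same-numbered libraries and at most 0.18 between others. With 4 libraries per group, such values cannot decide whether the replicate numbers pair the samples. With the replicate number as a block, 628 genes were called higher and 1133 lower, against 794 and 1401 without it. Ramp2 passed with the block (limma adjusted p = 0.019). Without 1 library the counts were 550 to 941 higher and 992 to 1433 lower. Pgf, with 2 to 9 fragments, is limited by depth.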
